A study of Mus musculus with 8 samples.

Results

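Ikaros family genes and early lymphoid genes were followed in hematopoietic cluster cells and in endothelium of the mouse embryo at E11.5, with and without Kit ligand (Kitl). The 10 genes were the family itself (Ikzf1, Ikzf2, Ikzf3, Ikzf4 and Ikzf5) and Ebf1, Pax5, Rag1, Tcf3 and Bcl11a, out of 24015 genes in the table. They were chosen by name, and in part because Ikzf1 was lower in Sl/Sl than in wild type clusters, so the comparison of genotypes within clusters is given for them as a description only. Cells came from the aorta-gonad-mesonephros region with the vitelline and umbilical arteries (AGM+VU) and were sorted as Ter119- VE-Cadherin+ Kit+ (clusters) or as Ter119- VE-Cadherin+ Kit- CD41- CD45- (endothelium). Clusters and endothelium were each taken from wild type and from Sl/Sl embryos, which gives 4 groups of 2 libraries with 100 cells per library. Sl/Sl embryos are homozygous for a germline deletion that takes in Kitl, so every cell of the embryo carries it, and no agent was given to any group. Each sample was a pool of 1 to 4 embryos of 1 genotype, and it is not stated which of the 2 sorting experiments it came from. P-values therefore measure the spread between these pools.

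Ikaros proteins are zinc finger transcription factors that bind DNA through fingers near the start of the protein and pair with one another through fingers near its end. Ikzf1 encodes Ikaros, needed for lymphoid development and expressed from stem and progenitor cells onward. Ikzf2 encodes Helios, Ikzf3 Aiolos, Ikzf4 Eos and Ikzf5 Pegasus. Tcf3 encodes the E proteins E12 and E47, Ebf1 and Pax5 specify and commit the B lineage, Rag1 encodes a subunit of the recombinase that rearranges antigen receptor genes, and Bcl11a encodes a zinc finger repressor required for lymphoid development and known for silencing of embryonic globin genes.

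The libraries held between 8933236 and 13428214 counts on genes. As a check of the genotype, endothelium libraries held 1250 and 923 Kitl counts (wild type) against 6 and 2 (Sl/Sl). Cluster libraries held 110 and 0 (wild type) against 1 and 3 (Sl/Sl), so Kitl does not check the label of replicate 2 of the wild type clusters. Levels summed over 10 hematopoietic markers were 422 to 522 RPKM (counts on a gene divided by its exon length and by the library total) in clusters and 35.3 to 43.6 in endothelium. Summed over 10 endothelial markers they were 2775 to 3210 in endothelium, 516 and 216 in wild type clusters and 1427 and 373 in Sl/Sl clusters. Of 9 macrophage and myeloid markers the sum was 89.1 and 87.0 in wild type clusters, 191 and 85.0 in Sl/Sl clusters, and at most 7.14 in endothelium.

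Of the 10 genes, 3 passed the test between clusters and endothelium, Ikzf1, Ikzf2 and Bcl11a, all higher in clusters. Their upstream sequences are shown with that of Rag1, the gene whose window held the most kinds of motif searched. Each window is the 250 bases before the first exon of the gene as the table gives it, read 5′ to 3′ on the strand of the gene from the mm9 genome, and capitals mark motif matches. The windows lie at chr11:11585966-11586215 on the plus strand for Ikzf1, chr1:69732535-69732784 on the minus strand for Ikzf2, chr11:23977806-23978055 on the plus strand for Bcl11a and chr2:101489690-101489939 on the minus strand for Rag1.
Ikzf1: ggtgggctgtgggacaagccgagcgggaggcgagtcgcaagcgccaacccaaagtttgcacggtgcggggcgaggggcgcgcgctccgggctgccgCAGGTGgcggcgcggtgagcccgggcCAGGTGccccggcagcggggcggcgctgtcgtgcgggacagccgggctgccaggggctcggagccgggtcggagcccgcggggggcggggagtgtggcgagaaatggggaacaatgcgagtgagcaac
Ikzf2: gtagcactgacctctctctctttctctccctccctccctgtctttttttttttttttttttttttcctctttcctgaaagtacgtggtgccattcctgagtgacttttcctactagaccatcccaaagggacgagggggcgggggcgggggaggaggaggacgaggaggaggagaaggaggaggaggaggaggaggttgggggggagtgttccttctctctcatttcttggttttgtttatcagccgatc
Bcl11a: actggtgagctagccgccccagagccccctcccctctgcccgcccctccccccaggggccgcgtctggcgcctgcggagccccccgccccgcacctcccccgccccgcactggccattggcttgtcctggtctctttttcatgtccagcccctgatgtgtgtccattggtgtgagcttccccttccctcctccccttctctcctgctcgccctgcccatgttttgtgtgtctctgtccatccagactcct
Rag1: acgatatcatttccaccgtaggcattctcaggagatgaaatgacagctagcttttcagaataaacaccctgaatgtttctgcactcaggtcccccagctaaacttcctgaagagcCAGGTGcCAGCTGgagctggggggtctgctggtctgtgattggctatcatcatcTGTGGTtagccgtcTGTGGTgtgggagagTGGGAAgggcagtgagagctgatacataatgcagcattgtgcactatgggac
The motifs searched on both strands were CAGCTG or CAGGTG for an E-box, TGGGAA for the Ikaros core, TGTGGT or TGCGGT for RUNX, AGATAA for GATA and CGGAAG for ETS. The E-box letters occurred 2 times in the Ikzf1 window and 2 times in the Rag1 window, and they are in 26.9% of all 23805 windows of this length. The Rag1 window also held 2 RUNX matches and 1 Ikaros match, which 17.6% and 20.9% of all windows hold. The windows of Ikzf2 and Bcl11a held none of these letters. GC content was 75.6% for Ikzf1, 67.2% for Bcl11a, 51.6% for Ikzf2 and 50.8% for Rag1, against a median of 55.2% over all windows, and the Ikzf1 window held 32 CpG. A match is a description of the letters and not a measured site.

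Ikzf1 was the member with the largest difference between the cell types. Its gene spans chr11:11586216-11672929 on mm9, with 8 exons of 5163 bases. Cluster libraries had 3020 and 4563 counts (wild type) and 872 and 2173 (Sl/Sl), and endothelium libraries had 29 and 14 (wild type) and 15 and 8 (Sl/Sl). Every cluster library was above every endothelium library. Per length, the level in clusters was 62.4 ± 11.3 RPKM (mean ± SD, n = 2) for wild type and 22.7 ± 12.2 for Sl/Sl. In endothelium it was 0.348 ± 0.127 for wild type and 0.209 ± 0.050 for Sl/Sl. No neighbouring groups overlapped, but the nearest endothelium libraries were close, at 0.258 (wild type, 14 counts) and 0.244 RPKM (Sl/Sl, 15 counts). The step between genotypes in clusters is the one by which Ikzf1 was chosen. Over both genotypes, clusters were 126-fold higher, a log2 fold change of 6.97 with a standard error of 0.40 (adjusted p = 5.96e-05, edgeR's quasi-likelihood test, adjusted by Benjamini-Hochberg over the 13908 genes tested). This average over the genotypes is independent in design of the genotype difference by which Ikzf1 was chosen. In these bulk samples, fewer cells of a type and less RNA per cell cannot be told apart.

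Ikzf2 and Bcl11a were also higher in clusters. Ikzf2, at chr1:69577784-69732534, had 1945 and 1786 (wild type) and 1898 and 1513 (Sl/Sl) counts in clusters, and 228 and 217 (wild type) and 56 and 143 (Sl/Sl) in endothelium. This was a log2 fold change of 3.26 (SE 0.41, adjusted p = 0.00166, edgeR's quasi-likelihood test), or 9.58-fold. Bcl11a, at chr11:23978056-24073558, had 2284 and 2635 (wild type) and 1735 and 2421 (Sl/Sl) counts in clusters, and 607 and 423 (wild type) and 102 and 357 (Sl/Sl) in endothelium. Its log2 fold change was 2.37 (SE 0.43, adjusted p = 0.00912, edgeR's quasi-likelihood test), or 5.18-fold. For both genes the 4 cluster libraries lay above the 4 endothelium libraries, and replicate 1 of the Sl/Sl endothelium was the lowest. Per length, Bcl11a was the higher of the pair in every cluster library, at 20.6 to 30.3 RPKM against 11.96 to 19.2 for Ikzf2.

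**Figure D1:**
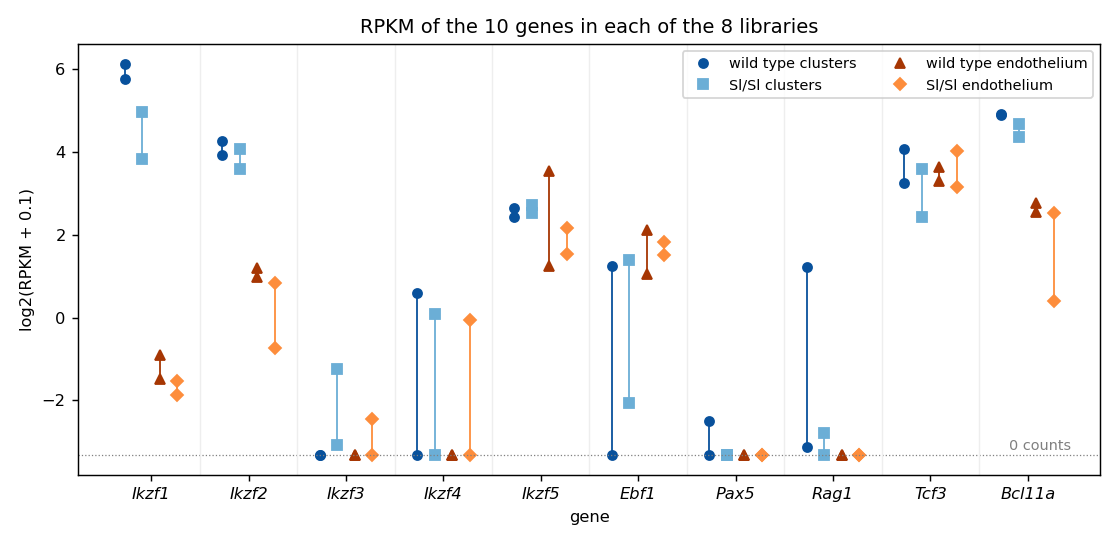
Level of each gene in each library, as log2(RPKM + 0.1), with 2 points joined by a line for each group and a dotted line at a count of 0. Ikzf1, Ikzf2 and Bcl11a stand higher in all 4 cluster libraries than in all 4 endothelium libraries, while Ikzf5, Ebf1 and Tcf3 overlap and Ikzf3, Ikzf4, Pax5 and Rag1 are at or near 0 in most libraries.

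Over all genes tested, 8.12% were called higher in clusters and 8.48% were called lower, while of the 7 members tested 3 were called higher and none lower. The other 4, Ikzf4, Ikzf5, Ebf1 and Tcf3, did not pass. Without wild type clusters replicate 2, the library that Kitl does not check, the log2 fold changes of Ikzf1, Ikzf2 and Bcl11a were 6.89, 3.35 and 2.39. The 4 cluster libraries lay above the 4 endothelium libraries in 9.57% of genes tested and below them in 10.1%. Of all 10 members, 3 lay above and none lay below. In wild type alone, where 3.68% of genes were called higher and 4.56% lower, Ikzf1 (log2 fold change 7.35, SE 0.57), Ikzf2 (2.94, SE 0.57) and Bcl11a (2.14, SE 0.60) passed, with adjusted p-values of 0.00103, 0.0227 and 0.0823. In Sl/Sl alone, where 1.84% were called higher and 0.985% lower, the same genes had log2 fold changes of 6.60 (SE 0.57), 3.58 (SE 0.59) and 2.60 (SE 0.61), with adjusted p-values of 0.00121, 0.0213 and 0.0837. These single-genotype comparisons share their cluster libraries with the comparison that the choice of genes used. In Sl/Sl, edgeR on the 4 libraries compared ended the calls of both Ikzf2 (adjusted p = 0.121) and Bcl11a (adjusted p = 0.210). The Bcl11a calls within a genotype were also lost without single libraries. In wild type the adjusted p of Bcl11a was 0.107 without wild type clusters replicate 1, 0.152 without replicate 2, 0.187 without wild type endothelium replicate 1 and 0.234 without its replicate 2, and in Sl/Sl it was 0.173 without Sl/Sl clusters replicate 2. Without Sl/Sl endothelium replicate 2, the Bcl11a difference in Sl/Sl was 4.15 on the log2 scale.

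The other members with appreciable levels, Ikzf5 and Tcf3, did not pass between the cell types. Ikzf5, at chr7:138532163-138553992, had 292 and 291 (wild type) and 344 and 332 (Sl/Sl) counts in clusters, and 650 and 105 (wild type) and 147 and 172 (Sl/Sl) in endothelium. The cluster libraries stood close together, and wild type endothelium held both the highest and the lowest value. The log2 fold change was 0.12 (SE 0.56, adjusted p = 0.933, edgeR's quasi-likelihood test). Tcf3, at chr10:79871910-79896398 and hence the E2A gene, had 634 and 424 (wild type) and 226 and 566 (Sl/Sl) counts in clusters, and 566 and 365 (wild type) and 688 and 278 (Sl/Sl) in endothelium. All 4 groups overlapped, and the log2 fold change was -0.29 (SE 0.41, adjusted p = 0.715).

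The B lineage and recombinase members were low or uneven. Ebf1, at chr11:44431602-44821598, had 0 and 152 (wild type) and 9 and 180 (Sl/Sl) counts in clusters, and 288 and 111 (wild type) and 174 and 163 (Sl/Sl) in endothelium. Ebf1 was thus detected in all endothelium libraries, and within each cluster group 1 library was near 0 and the other within the range of endothelium. The log2 fold change was -1.45 (SE 1.34, adjusted p = 0.551, edgeR's quasi-likelihood test), and without wild type clusters replicate 2 it was -5.97 (adjusted p = 0.0566). Pax5 had 1 count in wild type clusters replicate 1 and 0 in the other 7 libraries. Rag1, at chr2:101478411-101489689, had 1 and 188 (wild type) and 0 and 4 (Sl/Sl) counts in clusters and 0 in all 4 endothelium libraries, so nearly all of its counts came from 1 library. A count of 0 allows up to 3 counts in that library, counting error only.

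Ikzf3 and Ikzf4 were near absent from the counts. Ikzf3, at chr11:98326007-98407345, had 16 and 1 counts in Sl/Sl clusters, 3 in Sl/Sl endothelium replicate 2 and 0 elsewhere. Ikzf4, at chr10:128069471-128083049, had 64 counts in wild type clusters replicate 2, 46 in Sl/Sl clusters replicate 2, 37 in Sl/Sl endothelium replicate 1 and 0 in the other 5 libraries, and did not pass between the cell types (adjusted p = 0.395). Ikzf3, Pax5 and Rag1 were too low to be tested, and no fold change is given for Ikzf4.

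The make-up of the family differed between the cell types. Summed over the 5 Ikaros genes, cluster levels were 79.8 and 92.2 RPKM (wild type) and 37.8 and 49.9 (Sl/Sl), and those of endothelium were 4.43 to 13.9. Ikzf1 took 68.2% and 76.4% of this sum in wild type clusters and 37.3% and 62.8% in Sl/Sl clusters. Between genotypes in clusters, the sums and shares hold the Ikzf1 values that the choice of genes used. In the endothelium it took 2.74% to 5.52%, and Ikzf5 led in every library with 48.2% to 83.2%. Ikzf2 took 24.1% and 16.4% (wild type) and 44.5% and 24.0% (Sl/Sl) in clusters and 11.3% to 46.4% in endothelium. Sl/Sl clusters replicate 1 was the only cluster library in which Ikzf2 stood above Ikzf1.

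**Figure D2:**
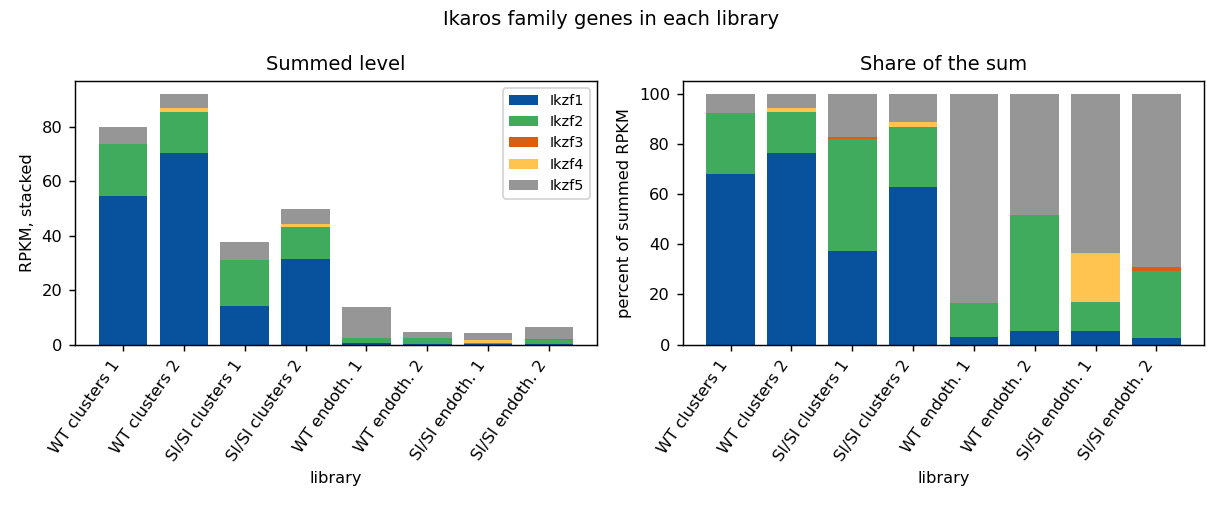
Ikaros family genes in each library, stacked as RPKM on the left and as percent of their sum on the right. Ikzf1 makes up 37.3% to 76.4% of the sum in the 4 cluster libraries and at most 5.52% in the 4 endothelium libraries, where Ikzf5 leads.

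Between genotypes within clusters, the levels are described without a test. Ikzf1 stood at 260.2 and 355.0 CPM (counts scaled to a common library total) in wild type clusters and at a mean of 112 ± 56.7 CPM (SD, n = 2) in Sl/Sl clusters, a fitted log2 fold change of -1.46 with a standard error of 0.43. Both Sl/Sl libraries lay below both wild type libraries, and the 2 Sl/Sl libraries differed between themselves, at 14.1 and 31.3 RPKM. The log2 fold change was -1.23 without wild type clusters replicate 2, -1.02 without Sl/Sl clusters replicate 1 and -2.10 without Sl/Sl clusters replicate 2. It was -0.23 (SE 0.53) for Ikzf2, -0.37 (SE 0.57) for Bcl11a, 0.11 (SE 0.79) for Ikzf5, -0.59 (SE 0.58) for Tcf3 and 0.17 (SE 1.86) for Ebf1. The value for Tcf3 was -1.24 without Sl/Sl clusters replicate 2, and that for Ebf1 was 9.27 without wild type clusters replicate 2 and -2.98 without Sl/Sl clusters replicate 2. Over all genes, 0% passed the threshold in this comparison (587 genes had an unadjusted p under 0.05, and DESeq2 called 175). The 2 Sl/Sl libraries lay above both wild type libraries in 16.4% of genes and below in 16.3%. Of the members, Ikzf1 and Bcl11a lay below and Ikzf3, at 16 and 1 counts against 0 and 0, lay above.

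Ikzf1 was set beside Ptprc, which encodes CD45, a surface protein of blood cells. The cluster sort did not use CD45. In the paper this gate holds both CD45- and CD45+ precursors of stem cells, and the CD45+ ones were reduced in Sl/Sl. Ptprc is thus not a measure of all blood cells in these libraries. Ptprc was at 27.4 and 54.9 RPKM in wild type clusters and at 19.1 and 41.8 in Sl/Sl clusters, so the genotypes overlapped. The ratio of Ikzf1 to Ptprc was 1.99 and 1.28 in wild type clusters and 0.74 and 0.75 in Sl/Sl clusters. This ratio holds the Ikzf1 values that the choice of genes used, so it is a description and no separate support. The ratio of Ikzf2 to Ptprc was 0.701 and 0.275 against 0.882 and 0.286. Sl/Sl clusters replicate 1, the cluster library lowest in Ikzf1, was also highest in the endothelial sum (1427 RPKM) and in the macrophage and myeloid sum (191 RPKM). Sl/Sl clusters replicate 2 was lower in Ikzf1 than wild type clusters replicate 1 (31.3 against 54.4 RPKM). Its endothelial sum (373 against 516 RPKM) and its macrophage and myeloid sum (85.0 against 89.1 RPKM) were lower as well. The part of these sums in the Ikzf1 level was not tested.

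**Figure D3:**
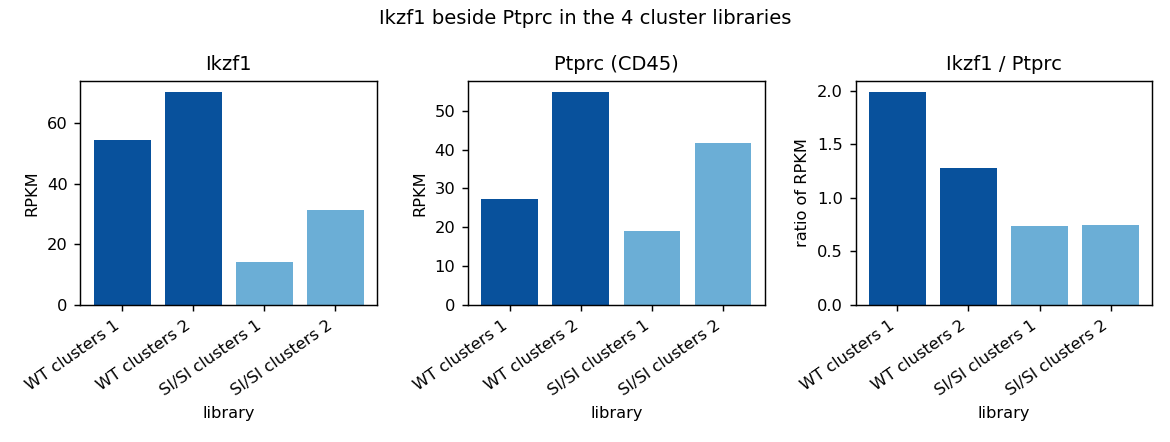
Ikzf1 and Ptprc in RPKM and their ratio, 1 bar for each of the 4 cluster libraries. Ikzf1 and the ratio are lower in both Sl/Sl libraries than in both wild type libraries, whereas Ptprc overlaps between the genotypes. The choice of genes used these Ikzf1 values, so Ikzf1 and the ratio are a description.

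In endothelium, libraries that the choice of genes did not use, 0 of the 7 members tested passed between Sl/Sl and wild type (adjusted p = 1 for each in edgeR's quasi-likelihood test), where 0% of all genes passed. At an unadjusted p under 0.05 there were 580 genes, and DESeq2 called 179. Under the alternatives run, the lowest adjusted p of a member with a reported fold change was 0.268, for Bcl11a. The log2 fold change was -0.71 (SE 0.52) for Ikzf1, -0.87 (SE 0.54) for Ikzf2, -0.83 (SE 0.58) for Bcl11a, -0.90 (SE 0.80) for Ikzf5, 0.19 (SE 0.58) for Tcf3 and 0.022 (SE 1.86) for Ebf1. Single libraries moved these values: without Sl/Sl endothelium replicate 1 the log2 fold change was -0.23 for Ikzf2 and -0.092 for Bcl11a, and without replicate 2 it was -2.04 and -2.36. For Ikzf1 it was -0.30 without wild type endothelium replicate 1 and -0.99 without its replicate 2. In this comparison 14.9% of genes had both Sl/Sl libraries below both wild type libraries and 13.5% had them above. Ikzf1, Ikzf2 and Bcl11a were among the former, and no member was among the latter. The gaps were small. The nearest Sl/Sl and wild type libraries were at 1.31 and 1.41 CPM for Ikzf1, 17.0 and 18.1 for Ikzf2, and 42.5 and 42.7 for Bcl11a. The difference of the genotype effect between the cell types was called for 0% of genes (736 had an unadjusted p under 0.05, and DESeq2 called 175), and it was not tested for Ikzf1, whose genotype effect in clusters entered the choice.

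**Figure D4:**
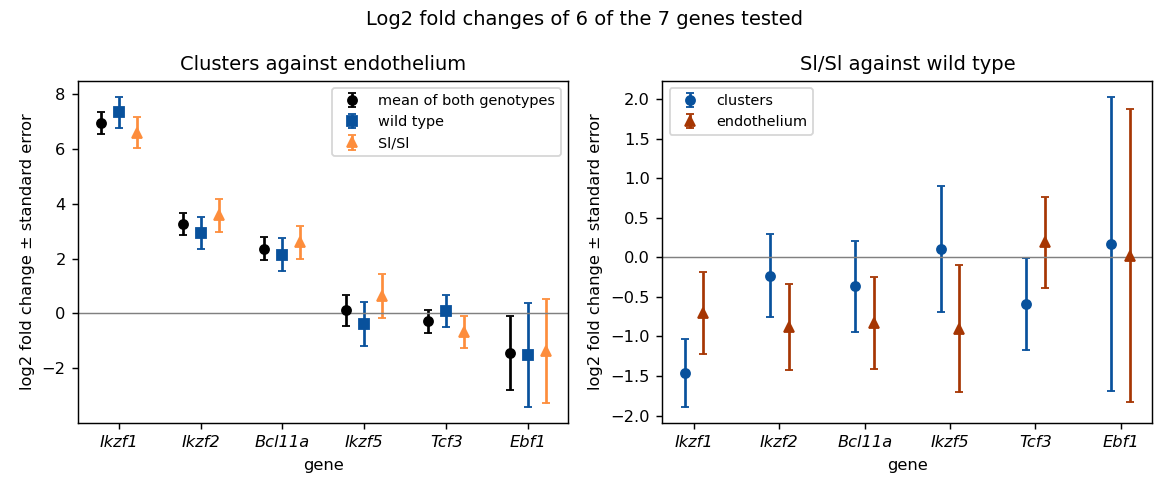
Log2 fold changes with standard errors from the edgeR fit, for clusters against endothelium on the left and Sl/Sl against wild type on the right. Ikzf1, Ikzf2 and Bcl11a lie above 0 on the left in both genotypes, and on the right the Ikzf1 value in clusters, -1.46, is a description because the choice of genes used it.

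Genes of the early lymphoid program were mostly higher in clusters. Of 8 genes for surface and cytokine receptors of early lymphoid cells, 7 could be tested, 5 were higher and 0 lower. Of all genes tested, 8.12% were called higher and 8.48% lower. The median over these receptors was 6.36 on the log2 scale, against 0.067 over all genes. Flt3, a receptor of multipotent and lymphoid progenitors, had 617 and 964 (wild type) and 178 and 538 (Sl/Sl) counts in clusters and 0 to 4 in endothelium (log2 fold change 7.72, SE 0.86, adjusted p = 0.000871 in edgeR's quasi-likelihood test). Il7r, the interleukin-7 receptor, had 444 and 786 (wild type) and 85 and 857 (Sl/Sl) counts in clusters, against 1 or 2 in each endothelium library (adjusted p = 0.00129). Cd27, a receptor of the TNF receptor family, had 414 to 1158 in clusters and 110, 0, 6 and 0 in endothelium (adjusted p = 0.0312). Ly6d had 0 counts in every library.

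Of 8 genes of V(D)J recombination other than Rag1, 7 could be tested and 3 were higher in clusters. The share called higher among all genes tested was 8.12%. The median over the V(D)J genes was 1.48 on the log2 scale. Rag2, the partner of Rag1 in the recombinase, had 174 and 1095 (wild type) and 6 and 148 (Sl/Sl) counts in clusters, 1 in wild type endothelium replicate 2 and 0 in the other 3 endothelium libraries (adjusted p = 0.0114, edgeR's quasi-likelihood test). The Rag2 level was thus uneven within clusters, with 1 Sl/Sl library close to that of endothelium and wild type clusters replicate 2 highest, as for Rag1. Nhej1, an end-joining factor, was higher over both genotypes (adjusted p = 0.0124) with 164 to 498 counts in clusters and 0 and 2 (wild type) and 127 and 78 (Sl/Sl) in endothelium. Its log2 fold change was 8.25 (SE 1.43) in wild type alone. In Sl/Sl alone it was 0.50 (SE 0.99) and did not pass (adjusted p = 0.880, edgeR's quasi-likelihood test). Xrcc6, which encodes Ku70, was at 62.0 to 72.1 RPKM in clusters and 8.32 to 31.2 in endothelium (log2 fold change 1.48, SE 0.35, adjusted p = 0.0283). Its partner Xrcc5, Ku80, did not pass (0.47, SE 0.34, adjusted p = 0.420). Dntt, the terminal transferase, had 0 counts in every library.

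Many genes of the separate lymphoid lineages were too low to test. Among 12 B lineage genes other than Ebf1 and Pax5, 5 could be tested and 2 were higher in clusters. Their median was 1.65 on the log2 scale. For these lineage lists, the shares among all genes tested were 8.12% called higher and 8.48% called lower. Btk, a kinase of B and myeloid cells, had 29 to 344 counts in clusters and 2 to 6 in endothelium (log2 fold change 4.99, SE 1.09, adjusted p = 0.0204). Cd79b was at 62.0 to 102.2 RPKM in clusters and 21.5 to 73.7 in endothelium, and passed at an adjusted p of 0.0666. Vpreb1, a surrogate light chain gene, had 54, 0, 0 and 10 counts in clusters and 32 to 161 in endothelium (adjusted p = 0.226), and Blnk had 0 to 114 in either cell type (adjusted p = 0.287). Of 16 genes of the T and innate lymphoid lineages, 9 could be tested, with a median of 0.17. Cd3g, a T cell receptor subunit, was higher in clusters (adjusted p = 0.0176), with 46 and 989 (wild type) and 31 and 604 (Sl/Sl) counts there and 0 to 5 in endothelium, whereas Cd3e and Cd8a had 0 counts throughout. Gata3 was lower in clusters (log2 fold change -1.59, SE 0.38, adjusted p = 0.0306), at 177 to 352 counts against 501 to 1018. Lck and Lat did not pass (adjusted p = 0.337 and 0.968).

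**Figure D5:**
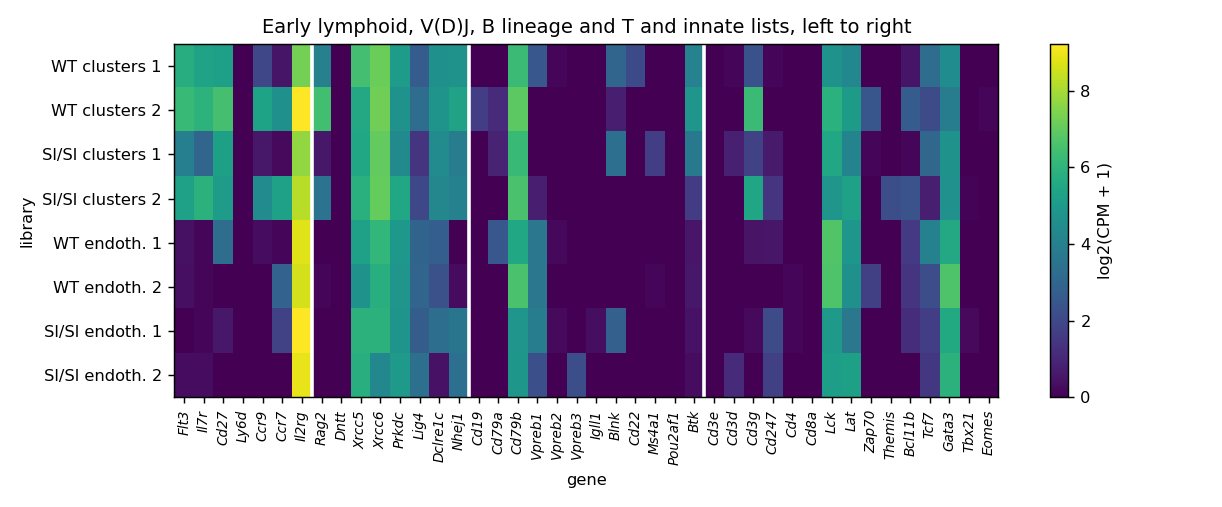
Heat map of log2(CPM + 1) with 1 column a gene for genes of the early lymphoid, V(D)J, B lineage and T and innate lists and 1 row for each library, white lines marking the borders of the lists. Flt3, Il7r and Cd27 stand higher in the 4 cluster rows, while many B and T lineage columns are at or near 0 in all 8 libraries.

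Some partners and inhibitors of Tcf3 were lower in clusters. Of 6 other genes for E proteins and Id inhibitors, which block DNA binding by E proteins, 0 were higher and 4 were lower in clusters. The share called lower among all genes tested was 8.48%. The median over these 6 genes was -1.24 on the log2 scale. Id3 had 1577 and 1642 (wild type) and 6063 and 5025 (Sl/Sl) counts in clusters and 11252 to 14280 in endothelium (log2 fold change -2.42, SE 0.16, adjusted p = 9.42e-05, edgeR's quasi-likelihood test). Id1 (-2.40, SE 0.32, adjusted p = 0.00219), Id2 (-1.02, SE 0.34, adjusted p = 0.0886) and the E protein gene Tcf4 (-1.04, SE 0.21, adjusted p = 0.0151) were also lower in clusters. The E protein gene Tcf12 (adjusted p = 0.105) and Id4 (adjusted p = 0.519) did not pass. Between genotypes in clusters, Id3 stood at 154 and 137 RPKM (wild type) against 531 and 393 (Sl/Sl), a log2 fold change of 1.69 (SE 0.23), and did not pass at an adjusted p of 0.109. Sl/Sl clusters replicate 1 was the highest of the cluster libraries in both Id3 and the endothelial sum (1427 RPKM). Sl/Sl clusters replicate 2 had a lower endothelial sum than wild type clusters replicate 1 (373 against 516 RPKM). Its Id3 level was the higher of these 2 libraries, at 393 against 154 RPKM. The part of endothelial RNA in the Id3 level was not tested.

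Among 14 transcription factors of lymphoid priming, 9 were higher and 2 lower in clusters, the median log2 fold change being 3.53. Runx1, required for blood formation from endothelium, was at 16.8 to 26.6 RPKM in clusters and 0.254 to 0.342 in endothelium (log2 fold change 6.04, SE 0.30, adjusted p = 5.96e-05). Myb (5.69, SE 0.35, adjusted p = 6.44e-05), Spi1 (4.71, SE 0.58, adjusted p = 0.00154) and Irf8 (7.04, SE 1.07, adjusted p = 0.00408) were higher as well. Spi1, which encodes PU.1 and is shared with the myeloid lineage, had its highest count, 2058, in Sl/Sl clusters replicate 1, the library with the highest macrophage and myeloid sum (191 RPKM), and the part of that sum was not tested. Of the 18 genes for NuRD, SWI/SNF and co-repressor subunits of complexes known to associate with Ikaros, 1 was higher and 0 were lower, with a median of 0.015, where 8.12% of all genes tested were called higher and 8.48% lower, so the list's share was not above the background. The gene called was Rbbp7, a histone-binding subunit, at 302 to 419 RPKM in clusters and 183 to 243 in endothelium (log2 fold change 0.67, SE 0.16, adjusted p = 0.0312). Hdac2, Sin3b and Hdac1 did not pass (adjusted p = 0.742, 0.177 and 0.945). In none of these 7 lists did a gene pass between genotypes in either cell type in edgeR's quasi-likelihood test, where 0% of all genes passed.

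The counts of list genes were repeated without single libraries. Early lymphoid receptors had 5 genes higher whichever library was left out, V(D)J genes 3 or 4, partner complex genes 1 or 2, B lineage genes 1 or 2 and lymphoid priming factors 7 or 8, and E protein and Id genes had 3 or 4 lower. The B lineage count was 1 without wild type clusters replicate 2, Sl/Sl clusters replicate 2, wild type endothelium replicate 1 or either Sl/Sl endothelium library. The partner complex count was 2 without either Sl/Sl endothelium library. Il2rg, the common cytokine receptor chain, was called lower in clusters without wild type clusters replicate 2, and Vpreb1 was called lower without wild type clusters replicate 1, which made 1 lower gene in each of their lists. The 7 macrophage and myeloid markers called higher in clusters (of 9 tested) moved the same way as most of these lists. So did 9 of 10 hematopoietic markers, and 10 of 10 endothelial markers were lower. Among all genes tested, 8.12% were called higher and 8.48% lower. Runx1, Myb and Spi1 are in both the hematopoietic marker list and the lymphoid priming list. Endothelium was sorted as Kit- CD41- CD45-, so the direction of the hematopoietic markers was in part set by the sort. The sum over neural markers was 7.75 to 32.4 RPKM in clusters and 182 to 437 in endothelium. Stmn2 alone had 11 to 632 counts in clusters and 3004 to 9518 in endothelium. Of 6 tested, 2 were lower in clusters in edgeR's quasi-likelihood test, Stmn2 (adjusted p = 0.00663) and Nes (adjusted p = 0.0525). Sox2, Tubb3, Elavl4 and Dcx did not pass. The median over the 6 was 0.41 on the log2 scale, and it includes genes at 0 in most libraries, such as Sox2. With at least 10 counts required in every library, 2 neural markers were tested, Nes and Stmn2, and both were lower in clusters. The erythroid sum was 404 RPKM in Sl/Sl clusters replicate 1, 23.6 to 116 in the other cluster libraries and lower than 404 in each endothelium library, with 0 of 5 markers called. Among the macrophage markers in clusters, Csf1r had 263 to 529 counts, while C1qa had 1 and 23 (wild type) and 300 and 0 (Sl/Sl). The part of these markers in the lymphoid lists was not tested.

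The genes whose levels ran most like those of a member were named by the Pearson correlation of log2 CPM over the 8 libraries among 8862 genes, as a description. For Ikzf1 these were Rgs18 (0.995), Cd52 (0.994), Laptm5 (0.994), Sla (0.993) and Cd69 (0.992). Among those for Ikzf2 were Cd68 (0.985), Wdr73 (0.982), Def6 (0.981) and Ppan (0.979). Among those for Bcl11a were Wdr73 (0.988), Def6 (0.978) and Ikzf2 itself (0.975). The nearest to Ebf1 was Id2 (0.977), to Tcf3 Msl2 (0.967), to Ikzf5 Tyw3 (0.937) and to Ikzf4 Pde7a (0.937). The libraries share 2 cell types, so any gene with a like difference between clusters and endothelium ranks high for Ikzf1, Ikzf2 and Bcl11a.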

How the data were processed

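RNA was measured by SMARTSEQ2, which copies polyadenylated transcripts and adds no molecular identifiers, in 8 libraries of 100 sorted cells. The authors aligned reads to mm9 with STAR 2.4.2a and counted them on genes with featureCounts (Subread 1.4.5). The deposited table holds raw counts, not normalized, with the exon length and coordinates of each gene. The annotation, the strand setting and the treatment of multiply mapped reads are not given in the sources used here. No exon of the 10 genes overlaps another gene of the table. The authors compared groups with DESeq2 1.12.4 at a threshold of 0.1.

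Counts were tested with edgeR 4.0.16 (limma 3.58.1, R 4.3.3): TMM scaling, filterByExpr on the 4 groups (13908 of 24015 genes kept), 1 quasi-likelihood fit over 8 libraries and Benjamini-Hochberg adjustment over all genes tested, with a threshold of 0.1. The biological coefficient of variation was 0.817, with 4 residual and 5.24 prior degrees of freedom. CPM used TMM-scaled totals and RPKM plain totals with the exon length of the table. Single-gene log2 CPM used a prior count of 2. No replicate pair was a copy of the other. All 8 samples were mapped from their labels. Intervals and limits cover counting error only.

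The genes and lists were chosen with earlier results of these data known. All 10 members are named, and of each list up to 4 genes, those past the threshold for cell type with the smallest p, then those with the highest mean RPKM. The genes named as most alike are from the 5 with the highest correlation among genes with a mean log2 CPM of at least 3. Some genes that these rules name are not reported here. Alternatives were DESeq2 1.42.0, edgeR with the replicate number as a block, a fit of the 4 libraries compared, RLE scaling, genes kept without a filter or only with 10 or more counts throughout, a threshold of 0.05, TMM-scaled RPKM, the Spearman correlation and leaving out each library. The same alternatives for list counts, other than edgeR on 4 libraries, were added after seeing the data.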

Additional observations from a re-analysis of the deposited data

How the results depend on the processing

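The cell-type calls of Ikzf1, Ikzf2 and Bcl11a over both genotypes held under every alternative run, with log2 fold changes of 6.65 to 7.19, 2.97 to 3.85 and 2.03 to 3.14 without single libraries. Ikzf1 is absent from the run with at least 10 counts in every library. Within Sl/Sl, edgeR on 4 libraries ended the calls of Ikzf2 (adjusted p = 0.121) and Bcl11a (0.210), and a threshold of 0.05 ended both Bcl11a calls. The cause was not tested. With 2 libraries a group, a p that misses the threshold does not show that groups are alike.

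Over all genes, 2310 were called between the cell types, and DESeq2 called 3616 and a threshold of 0.05 gave 1488. In wild type alone 1146 became 2580 with DESeq2, 1990 without a filter on low counts, 657 at 0.05, and 592 to 1329 without single libraries. In Sl/Sl alone 393 became 1614, 1266 and 222 in the same order, 211 with edgeR on 4 libraries, and 182 to 633 without single libraries. For genotype in clusters, 0 became 175 with DESeq2, 253 without a filter, 9 with at least 10 counts in every library, and 6 to 76 without single libraries. For genotype in endothelium, 0 became 179 with DESeq2, 65 without a filter, 2 with edgeR on 4 libraries, and 0 to 1 without single libraries. For the difference of the genotype effects, 0 became 175 with DESeq2, 179 without a filter, and 0 to 27 without single libraries.

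Without single libraries, the sign turned for Ikzf5 between the cell types (-0.24 to 0.90) and, for genotype in endothelium, for Ikzf5 (-1.61 to 0.65), Tcf3 (-0.30 to 0.55) and Ebf1 (-0.38 to 0.63). None of these passed the threshold. For genotype in clusters, which was not tested for members, it turned for Ikzf2 (-0.53 to 0.025), Ikzf5 (-0.041 to 0.24) and Ebf1 (-2.98 to 9.27). With the replicate number as a replicate block, 8 genes were called for genotype in clusters, 2126 between the cell types, and Ebf1 in endothelium turned to -0.40, with no change in any call of a member. The labels name no shared litter, batch or day for a replicate number, and the correlations of deviations between same-numbered libraries ran from -0.11 to 0.16. With TMM-scaled totals, 1 of 40 group means of RPKM moved by more than 1 SD. By Spearman correlation, 7 of the 35 genes named as most alike stayed among the 5 highest. Among the list counts, requiring 10 counts in every library left 0 early lymphoid receptors and 1 V(D)J gene higher, since it removes genes near 0 in endothelium.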

Other observations

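Several lymphoid genes were uneven between the replicates of the clusters in both genotypes, a pattern chosen after their values were seen. Ccr9, a chemokine receptor of gut- and thymus-homing lymphoid cells, had 34 and 507 counts in wild type clusters and 6 and 297 in Sl/Sl clusters. Ccr7, another such receptor, had 5 and 305 (wild type) and 2 and 546 (Sl/Sl). Irf4, a transcription factor of lymphoid cells, had 0 and 129 (wild type) and 21 and 190 (Sl/Sl). In each of these, as in Cd3g, Ebf1 and Ikzf4, the library numbered 2 was the higher in both genotypes. Other genes of the lists went the other way in both genotypes. Blnk had 81 and 9 (wild type) and 114 and 0 (Sl/Sl), and Tcf7 had 102 and 44 (wild type) and 89 and 10 (Sl/Sl). The sum over 8 mesenchymal markers was 234 and 327 RPKM in wild type clusters and 8.61 and 1451 in Sl/Sl clusters. It was thus higher in the libraries numbered 2, and its part in the levels of these lymphoid genes was not tested.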
